A study of Homo sapiens with 4 samples.

Results

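The actin cytoskeleton and its transcriptional regulator SRF were examined in HCT116 cells, a line established from a human colon carcinoma, grown as spheroids or as a monolayer. The set comprised 10 genes: ACTB and ACTG1, the cytoplasmic actins; TPM1 and TPM4, tropomyosins that coat actin filaments; MYH9 and MYL9, the heavy chain and a regulatory light chain of nonmuscle myosin II; TAGLN2, a transgelin that binds filaments; FLNA, a filament crosslinker; VCL, the adhesion protein vinculin; and SRF itself. Its members were the probe sets annotated with exactly 1 gene symbol, that symbol being among the 10. This gave 26 of the 54675 probe sets on the array, and covered 8 of the 10 genes, out of 19775 genes with a probe set of their own. FLNA was not analysed here. ACTG1 had no probe set of its own, because 9 probe sets carry both the ACTG1 and the ACTB symbol. Of the 26 members, 6 belonged to ACTB, 6 to TPM1, 5 to TPM4, 2 each to TAGLN2, MYL9, VCL and SRF, and 1 to MYH9. The ACTB members include 3 control probe sets that read the 3' end, the middle and the 5' end of its transcript.

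The study measured total RNA on 4 Affymetrix arrays. The groups were HCT116 wt as a monolayer, HCT116 wt as spheroids, HCT116 wt/GFP as a monolayer and HCT116 wt/GFP as spheroids, with 1 array each, so each culture condition had 2 arrays. The labels write the last as HCT116/GFP wt, which was read here as the same line as HCT116 wt/GFP and paired with it. A monolayer is a sheet of cells on a flat surface, and spheroids are rounded multicellular aggregates; GFP is a green fluorescent protein. The labels give no culture time, passage or clone, and do not say how many cultures lay behind an array. The error behind each p-value rests mainly on other probe sets of like brightness, and less on the disagreement between the 2 lines. The p-values therefore cannot be taken to measure the spread between independent cultures, and the disagreement between the lines may be partly technical.

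SRF is a transcription factor that binds a DNA element called the CArG box. One class of its coactivators, the myocardin-related factors MRTFA and MRTFB, is held inactive by unpolymerised actin, so that SRF activity is tied to the state of the filaments, and its classic targets include actins, tropomyosins, vinculin, filamin and SRF itself. A second class, the ternary complex factors ELK1, ELK3 and ELK4, works with SRF on immediate early genes such as FOS and EGR1. In epithelial cells the filament system carries adhesion, tension and shape.

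Because the set is defined by its link to SRF, the CArG boxes in its promoters are shown first. RefSeq promoter windows (build GRCh38.p14, 250 bases before to 50 after each start site) were searched for the exact CArG box, CC and GG around a run of A and T letters. The element of 10 bases reads as the same pattern on both strands. Of the 10 genes, 8 had a promoter in the table, and 4 of these held a match. Over the whole table, 1.29% of 35116 promoters, and 1.6% of 27305 genes, held one. ACTB and MYL9 had no entry. The single windows of TPM1, MYH9 and VCL and the 3 of TAGLN2 held no match, which says only that these letters are not in these windows. The matches lay 30 and 10 bases before the start of SRF, 94 before ACTG1, 94 before FLNA and 173 before TPM4, in 1 of the 2 SRF windows and 1 of the 3 TPM4 windows. The sequences below run 5′ to 3′ on the gene's strand with the CArG boxes in capitals. They cover the 250 bases upstream of SRF (chr6:43171019-43171268, plus strand) and 60 bases around the match of ACTG1 (chr17:81512859-81512918, minus strand), FLNA (chrX:154374694-154374753, minus strand) and TPM4 (chr19:16067340-16067399, plus strand). CNN2, a calponin from the wider actin lists whose transcript is described further on, is added for comparison (chr19:1026494-1026553, plus strand). Of the 12 tested list genes with a match, members aside, it was the 1 called lower, and 5 were called higher.
SRF: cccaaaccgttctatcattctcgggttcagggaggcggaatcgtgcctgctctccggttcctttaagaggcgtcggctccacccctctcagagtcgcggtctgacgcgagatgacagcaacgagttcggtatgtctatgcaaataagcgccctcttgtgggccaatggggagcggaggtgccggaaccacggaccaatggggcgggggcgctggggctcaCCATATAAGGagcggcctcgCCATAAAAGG
ACTG1: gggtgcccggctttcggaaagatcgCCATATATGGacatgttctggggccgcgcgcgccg
FLNA: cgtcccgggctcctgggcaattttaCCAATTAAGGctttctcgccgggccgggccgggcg
TPM4: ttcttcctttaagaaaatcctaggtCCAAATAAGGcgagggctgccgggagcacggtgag
CNN2: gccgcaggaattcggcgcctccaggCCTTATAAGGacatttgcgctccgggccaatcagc

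In spheroids, SRF, ACTB and TPM1 were lower by about the same amount, between 1.46-fold and 1.57-fold, TAGLN2 was slightly higher, and VCL, MYH9, MYL9 and TPM4 did not pass the test. Values are deposited MAS5 signals, a background-corrected brightness on a linear scale, and changes are spheroids minus monolayer on the scale of log2(signal + 14.0), fitted in limma with culture and cell line as terms. A probe set was called at a Benjamini-Hochberg adjusted p under 0.05 over 32774 probe sets, of which 40.1% were called, 25.5% higher and 14.6% lower. Each gene was represented by its tested probe set with the highest mean, control probe sets aside. By that measure 3 of the 8 genes fell and 1 rose, against 17.7% lower and 29.6% higher among 14349 genes; the 4 of 8 called in either direction lie near the 47.4% of all genes. The median change of the 8 genes was -0.092, against 0.23 for all genes. Of the 26 probe sets, 22 passed the filter on dim probe sets (mean log2 value above 5.48), and 10 of these were lower, 2 higher and 10 not called. All 10 called lower were lower in both lines. Where an array is left out below, the fit is of 3 arrays with culture as its sole term, since culture and line together would leave no residual degree of freedom. Such a fit drops the line term along with the array and takes the lone array of a culture to vary like the other culture's 2, so a lost call is not put down to the array alone.

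**Figure D1:**
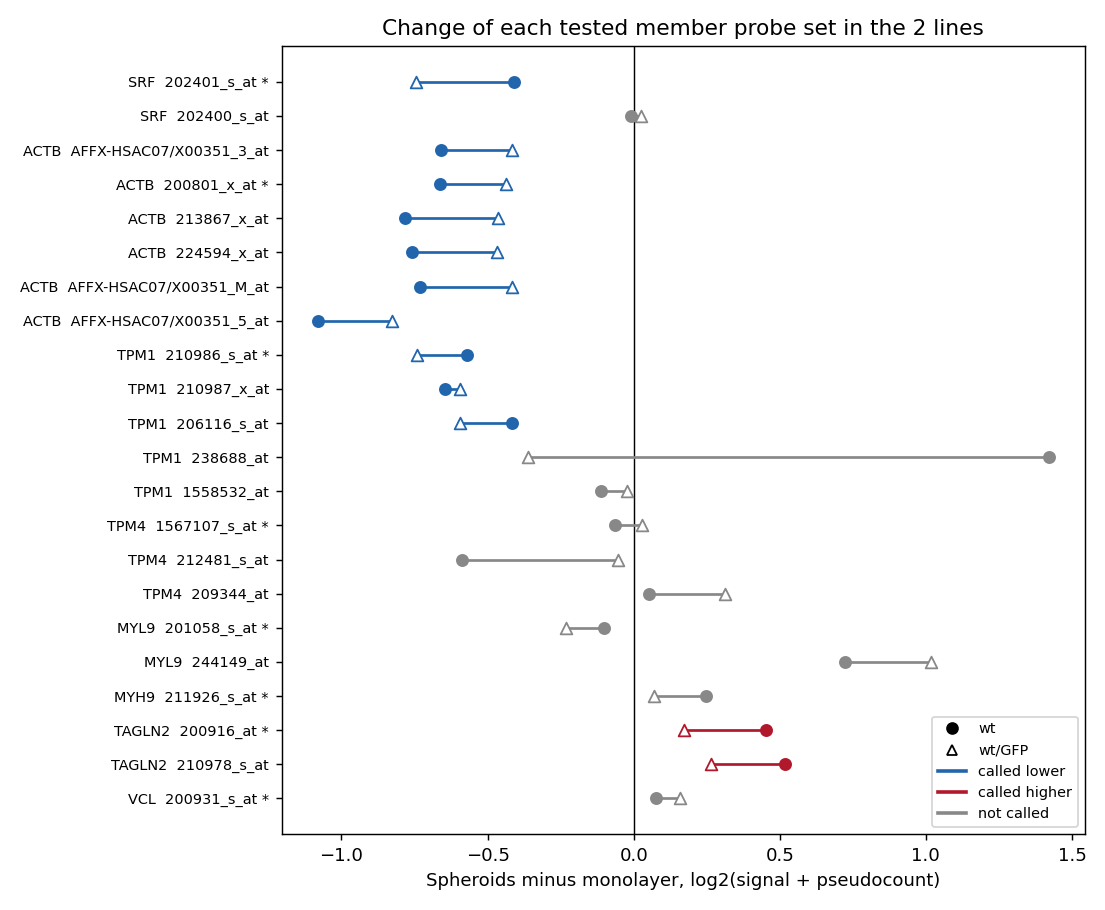
Change of each of the 22 tested member probe sets between spheroids and monolayer (x axis, log2 units), filled circles for wt and open triangles for wt/GFP, joined by a line coloured by the call; an asterisk marks the probe set that stands for its gene. The 6 ACTB probe sets, 3 of TPM1 and 1 of SRF lie below 0 in both lines, and the 2 of TAGLN2 lie above 0 in both.

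SRF encodes the factor that the other members are linked to. Its brighter probe set, 202401_s_at, read 453 in the wt monolayer and 338 in wt spheroids. For wt/GFP it read 537 in the monolayer and 314 in spheroids. Both spheroid arrays were thus below both monolayer arrays, and the groups did not overlap. The log2 change was -0.58 ± 0.19 (SE, 2 arrays per condition; limma adjusted p = 0.0178), with the wt line at -0.41 and the wt/GFP line at -0.75. The second probe set, 202400_s_at, was dim, at 28.7 and 28.4 in the wt monolayer and spheroids and 63.0 and 64.3 in those of wt/GFP, and it showed no difference between cultures larger than its error (0.0078 ± 0.52, adjusted p = 0.993). Its signals lay further apart between the lines than between the cultures, and the line difference was not tested. In fits of 3 arrays with no line term, the brighter probe set had a change of -0.70 without the wt monolayer (adjusted p = 0.0549) and -0.46 without the wt/GFP monolayer array (adjusted p = 0.221). With all 4 arrays and no line term it still passed (adjusted p = 0.0224).

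ACTB, which encodes beta-actin, the building block of cytoplasmic filaments, was lower in spheroids on all 6 of its probe sets. Probe set 200801_x_at read 42823 in the wt monolayer and 27034 in wt spheroids, and 33118 in the wt/GFP monolayer and 24435 in wt/GFP spheroids. The spheroid arrays were below the monolayer arrays in both lines, without overlap, although the 2 monolayer arrays also differed from each other. The log2 change was -0.55 ± 0.14 (adjusted p = 0.00292), or -0.66 for wt and -0.44 for wt/GFP. The probe sets 213867_x_at and 224594_x_at gave -0.62 ± 0.14 and -0.61 ± 0.14 (adjusted p = 0.00092 and 0.00103). All 3 are of the x_at kind, whose probes can also bind related transcripts, so reads from other actins in these signals cannot be set apart. For 200801_x_at the 3-array fits gave -0.62 without the wt spheroid (adjusted p = 0.119) and -0.48 without the wt/GFP spheroid array (adjusted p = 0.229), against an adjusted p of 0.0276 with all 4 arrays and no line term.

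The 3 control probe sets of ACTB fell by unequal amounts along the transcript. At the 5' end, wt and wt/GFP monolayers read 31993 and 26168, and their spheroids 15127 and 14734. At the 3' end, the monolayers read 42113 and 34083, and the spheroids 26660 and 25554. The 5' end therefore fell by 0.95 ± 0.14 log2 units (adjusted p = 2.60e-06), the middle by 0.57 ± 0.14 (adjusted p = 0.00181) and the 3' end by 0.54 ± 0.14 (adjusted p = 0.00372). Dividing the 3' by the 5' signal gave 1.32 and 1.30 for the monolayers against 1.76 and 1.73 for the spheroids. Most of the gap arose between the middle and the 5' end, where the ratio rose from 1.10 to 1.40 with culture in wt and from 1.03 to 1.37 in wt/GFP, while that of the 3' end to the middle went from 1.20 to 1.26 and from 1.27 to 1.27. For GAPDH, a glycolytic enzyme probed in the same way, the 3' to 5' ratio went from 0.897 to 0.868 in wt and from 0.882 to 0.951 in wt/GFP. With 2 arrays against 2 a two-sided exact permutation test of these ratios cannot go below p = 0.333. The part of transcript coverage in the ACTB result was not tested.

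The 9 probe sets that carry both the ACTG1 and the ACTB symbol did not follow the ACTB ones and are assigned to neither gene. Their signals ran from 41407 to 50468 in the wt monolayer and from 44878 to 52543 in wt spheroids, with a median log2 change of 0.072. In wt/GFP they ran from 30649 to 34166 in the monolayer and from 42401 to 53678 in spheroids, a median change of 0.63. The wt/GFP monolayer array alone was low. Of the 9, 1 was called higher and 0 lower, with adjusted p between 0.0406 and 0.137. The same array was lower for the brightest probe sets in general: its highest signal was 42706, against 59323, 68036 and 67033 on the wt monolayer, wt spheroid and wt/GFP spheroid arrays. Among the 274 other probe sets at least as bright as the dimmest of ACTB, the median change was 0.17 in wt and 0.59 in wt/GFP. The hybridisation controls, transcripts added to the sample before hybridisation, had median changes of 0.39 and 0.78. The ACTB changes were thus opposite in sign to these medians in both lines, and 22 of those 274 were lower in both.

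**Figure D2:**
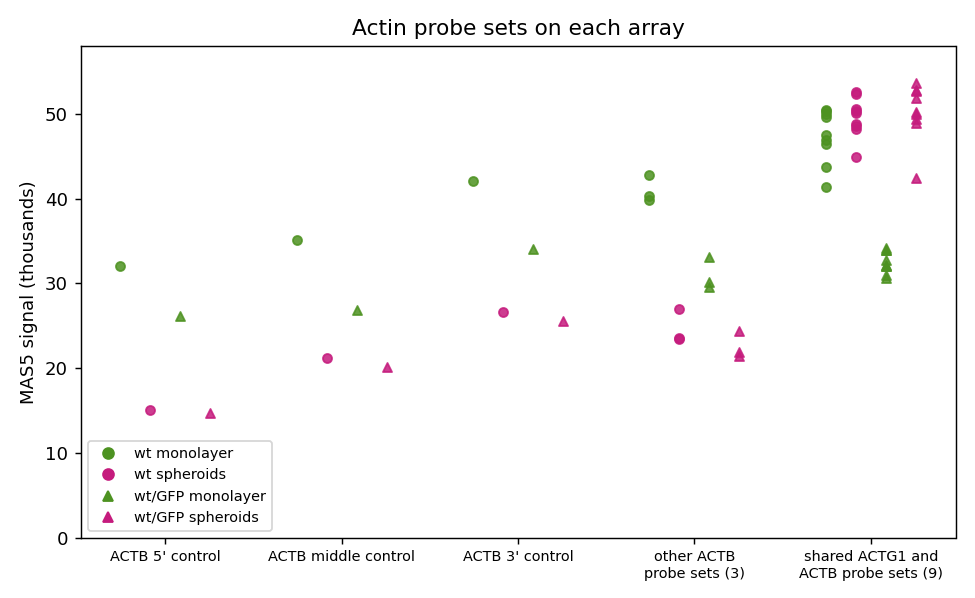
MAS5 signal (y axis, linear, from 0) of the ACTB control probe sets, the 3 other ACTB probe sets and the 9 probe sets shared by ACTG1 and ACTB; circles are wt, triangles wt/GFP, green monolayer and magenta spheroids. Every ACTB spheroid point lies below the monolayer points of the same probe set, whereas the shared probe sets differ mainly by the low wt/GFP monolayer array.

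TPM1 encodes a tropomyosin that winds along actin filaments and sets which other proteins can bind them. Its brightest probe set, 210986_s_at, read 1483 in the wt monolayer and 995 in wt spheroids, and 1677 in the wt/GFP monolayer and 998 in wt/GFP spheroids. The 2 spheroid arrays were nearly equal, and both monolayer arrays lay well above them. The log2 change was -0.65 ± 0.14 (adjusted p = 0.000374), or -0.57 in wt and -0.74 in wt/GFP. The probe sets 210987_x_at and 206116_s_at, with signals between 388 and 862, gave -0.62 ± 0.16 and -0.50 ± 0.18 (adjusted p = 0.00278 and 0.0241). In the 3 dim TPM1 probe sets there was no shared direction. Probe set 238688_at went from 28.8 to 100.4 in wt and from 37.4 to 26.0 in wt/GFP, 1558532_at differed between the lines (79.6 and 72.5 in wt, 15.5 and 15.0 in wt/GFP), and 206117_at lay under the filter, at 6.83 to 17.1. TPM1 is heavily spliced, and which isoforms each probe set reads was not analysed here. In the 3-array fit without the wt/GFP monolayer, 210986_s_at had a change of -0.57 (adjusted p = 0.0525), and with all 4 arrays and no line term it passed (adjusted p = 0.00195).

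TPM4, a second cytoplasmic tropomyosin, gave a different answer from each of its bright probe sets. The 3 had nearly equal mean log2 values of 10.07, 10.07 and 10.04, so the choice of 1567107_s_at to stand for the gene was close to arbitrary. That probe set read 1141 and 1092 in wt and 994 and 1015 in wt/GFP (change -0.017 ± 0.14, adjusted p = 0.941). Probe set 212481_s_at read 1401 and 927 in wt and 1001 and 964 in wt/GFP (change -0.32 ± 0.15, adjusted p = 0.0943), with the wt monolayer array alone standing high. Probe set 209344_at read 998 and 1035 in wt and 954 and 1189 in wt/GFP (change 0.18 ± 0.14, adjusted p = 0.342). None of the 3 passed, and the 2 others, 1559989_at and 235922_at, lay under the filter at 3.06 to 32.9.

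Of the motor subunits, neither passed. MYH9, the heavy chain that pulls on filaments, had a single probe set, 211926_s_at, at 598 and 712 in wt and 700 and 736 in wt/GFP (change 0.16 ± 0.16, adjusted p = 0.461). The wt spheroid array lay only just above the wt/GFP monolayer array. MYL9, a light chain whose phosphorylation switches the motor on, read 281 and 261 in wt and 390 and 330 in wt/GFP on probe set 201058_s_at (change -0.17 ± 0.21, adjusted p = 0.565). Here the lines were further apart than the cultures. The dimmer MYL9 probe set, 244149_at, went the other way, from 22.4 to 46.1 in wt and from 60.03 to 136 in wt/GFP, but with a large error (0.87 ± 0.47, adjusted p = 0.145).

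TAGLN2, a transgelin that stabilises filaments in nonmuscle cells, was the sole member called higher, on both of its probe sets. Probe set 200916_at read 3106 in the wt monolayer and 4260 in wt spheroids, and 3759 in the wt/GFP monolayer and 4243 in wt/GFP spheroids. The 2 spheroid arrays were almost equal and both exceeded both monolayers. The change was 0.31 ± 0.13 (adjusted p = 0.0485), with 0.45 in wt and 0.17 in wt/GFP. Probe set 210978_s_at read 1695 and 2431 in wt and 1849 and 2225 in wt/GFP (0.39 ± 0.13, adjusted p = 0.0179). Neither call is firm. With all 4 arrays and no line term, 200916_at had an adjusted p of 0.0737 and 210978_s_at one of 0.0242. In the 3-array fits, 200916_at gave 0.18 without the wt monolayer (adjusted p = 0.482), 0.31 without the wt spheroid (adjusted p = 0.123) and 0.32 without the wt/GFP spheroid array (adjusted p = 0.122). Probe set 210978_s_at gave 0.33 without the wt monolayer (adjusted p = 0.222), 0.45 without the wt/GFP monolayer (adjusted p = 0.0836) and 0.33 without the wt spheroid array (adjusted p = 0.0568).

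VCL links the filament system to integrins and cadherins. Its bright probe set, 200931_s_at, hardly moved, from 5269 to 5563 in wt and from 5095 to 5695 in wt/GFP (0.12 ± 0.12, adjusted p = 0.475). Its other probe set, 200930_s_at, lay just below the filter, with a mean log2 value of 5.42, and went from 6.16 to 66.9 in wt and from 12.1 to 65.4 in wt/GFP. In a fit with no filter this was a change of 1.81 ± 0.58 (adjusted p = 0.0384), but its signals stayed low in every array. Which transcripts each reads was not analysed here.

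The direction of the small changes depended on how the arrays were scaled. Across all genes, the median change went from 0.23 with the deposited scaling to 0.019 when arrays were quantile normalized, to -0.17 when each was centred on its median, and to -0.37 when each was scaled to its hybridisation controls. Of the 8 genes, 2 were higher and 3 lower with quantile normalization (22.5% and 19.9% of all genes), 0 and 5 with median centring (15.8% and 31.5%), and 0 and 3 with the hybridisation controls (6.84% and 26.5%); in the last 2 fits, 0 genes were higher at an unadjusted limma p under 0.05 as well. SRF, ACTB and TPM1 were called lower under all 4, with changes from -0.58 to -1.17, from -0.55 to -1.14 and from -0.65 to -1.25; since the other scalings all lower the median, they are a lenient check for genes that fell. TAGLN2 was called higher as deposited and after quantile normalization, but its value was -0.077 with median centring and -0.28 with the hybridisation controls. VCL passed only after quantile normalization (0.28, adjusted p = 0.0458). TPM4 and MYL9 passed as lower only after median centring (-0.41, adjusted p = 0.0237, and -0.56, adjusted p = 0.0360). MYH9 passed under none of the 4.

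**Figure D3:**
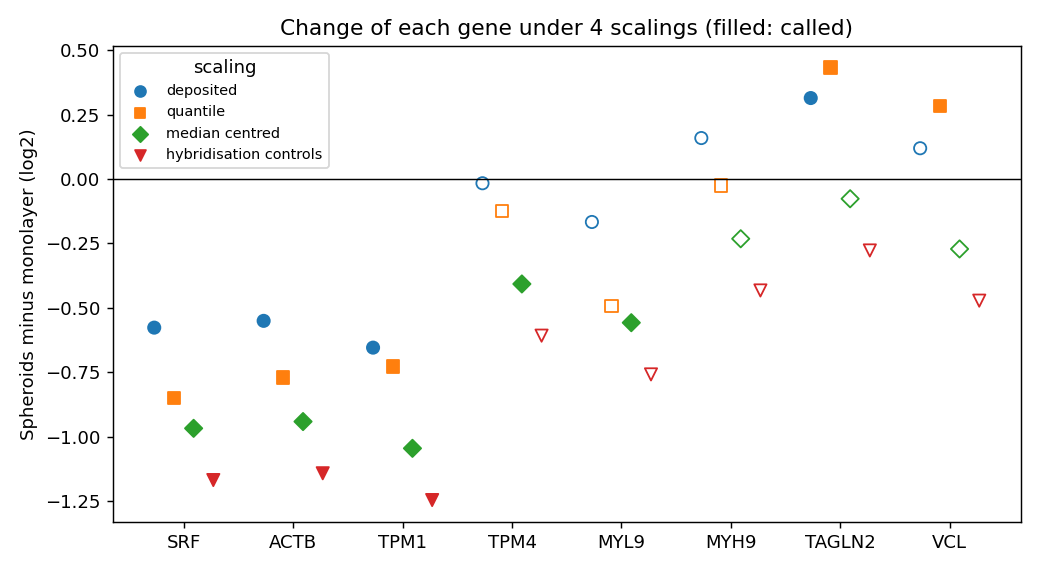
Change of the 8 genes between spheroids and monolayer (y axis, log2 units) with the deposited scaling, quantile normalization, median centring and scaling to the hybridisation controls; filled symbols passed an adjusted p under 0.05. SRF, ACTB and TPM1 are filled and below 0 under all 4, whereas TAGLN2, VCL and MYH9 lie on both sides of 0.

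The wider system was described with 10 lists holding 134 genes, of which 118 were tested. Leaving the members aside, 43 of 110 rose (39.1%) and 17 fell (15.5%), against 29.6% and 17.7% of all genes, and their median change of 0.25 was close to the 0.23 of all genes. The lists therefore did not move as a block. After scaling to the hybridisation controls, 10 of the 118, members included, rose and 36 fell, against 6.84% and 26.5% of all genes. Of genes named below as higher, CALD1, CNN3, MYH10, MYL12A, ACTN1, PLS1, MRTFB, ELK4 and TGFB1I1 passed with neither median centring nor hybridisation controls. ACTA2, MYH14, ITGA5, SCAI, SSH1 and EGR1 did not pass with the hybridisation controls. FOSB passed under none of the 3 other scalings.

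Immediate early genes, the SRF targets reached through ternary complex factors, were mostly higher in spheroids. Of 9 tested immediate early targets, 7 rose and 0 fell, with a median of 0.89 (0.29 after scaling to the hybridisation controls, when 3 rose and 1 fell). FOS, a subunit of AP-1, rose by 2.48 ± 0.20, from 135 to 755 in wt and from 151 to 987 in wt/GFP (adjusted p = 1.45e-10). EGR3 and JUNB, further transcription factors of the early response, rose by 1.59 ± 0.27 and 1.45 ± 0.18. FOSB rose by 1.41 ± 0.50 (adjusted p = 0.0261), mostly through wt, where it went from 11.4 to 133, against 69.5 to 87.7 in wt/GFP. It did not pass with all 4 arrays and no line term (adjusted p = 0.0703). The 3-array fits gave 0.55 without the wt monolayer (adjusted p = 0.398), 1.14 without the wt spheroid (adjusted p = 0.259) and 1.67 without the wt/GFP spheroid array (adjusted p = 0.103). Of 8 tested coactivators and related genes, 4 rose and 0 fell. ELK3, a ternary complex factor, rose by 1.28 ± 0.12 (adjusted p = 3.90e-09). ELK4 rose by 0.49 ± 0.13 on its brightest probe set, whose value was -0.10 after scaling to the hybridisation controls. Of the 5 other tested ELK4 probe sets, 2 had the opposite sign. Among the 5, a dimmer probe set was called lower (-1.45 ± 0.36, adjusted p = 0.00197). Another was called higher (1.66 ± 0.35, adjusted p = 0.000432), so the calls for ELK4 ran in opposite directions. The 3-array fits of ELK4 gave 0.53 without the wt monolayer (adjusted p = 0.055) and 0.45 without the wt/GFP monolayer array (adjusted p = 0.102). MRTFB, the actin-sensing coactivator, rose by 0.66 ± 0.14, and SCAI, a repressor of that coactivator, by 1.04 ± 0.19. Neither passed after scaling to the hybridisation controls.

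Among actin isoforms and filament-binding proteins the calls ran both ways. ACTA2, the smooth muscle actin, rose by 1.28 ± 0.27 (adjusted p = 0.00032), from 190 to 308 in wt and from 110 to 452 in wt/GFP. Of the 4 tested isoforms besides ACTB, it was the 1 that passed. DES, the muscle intermediate filament protein desmin and a smooth muscle marker, rose as well, from 94.6 to 212 in wt and from 24.2 to 229 in wt/GFP (1.86 ± 0.38, adjusted p = 0.000226), and its part in the ACTA2 result was not tested. CNN2, the calponin whose CArG box is printed above, fell by 1.07 ± 0.16 (adjusted p = 6.18e-06), from 1112 to 689 in wt and from 1829 to 658 in wt/GFP. CNN3, a related calponin, rose by 0.43 ± 0.12, and CALD1, caldesmon, by 0.49 ± 0.12; scaled to the hybridisation controls, their values were -0.16 and -0.10. The 3-array fit of CALD1 without the wt spheroid array gave 0.39 (adjusted p = 0.0558). TMOD1, which caps the pointed ends of filaments, rose by 0.94 ± 0.24, but did not pass with quantile normalization (0.59), median centring (0.55) or the hybridisation controls (0.35). Counting genes other than members, the tropomyosin list had 2 of 4 higher and 0 lower, and the calponin list 1 of 4 higher and 1 lower.

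For the myosin II list, 6 of 13 genes rose and 1 fell. MYLK, the kinase that phosphorylates myosin light chains, rose by 1.62 ± 0.28 (adjusted p = 3.65e-05), from 77.7 to 280.1 in wt and from 95.8 to 309 in wt/GFP. MYH14 and MYH10, the heavy chains of the other nonmuscle myosins II, rose by 1.40 ± 0.27 and 0.61 ± 0.13, where MYH9 did not pass; the difference between MYH9 and these genes was not tested. MYL12A, another light chain, rose by 0.66 ± 0.13 on its brightest probe set (mean log2 value 13.43), but 2 of its 3 others had the opposite sign. The dimmest (mean log2 value 7.03) was itself called lower, at -1.42 ± 0.33 (adjusted p = 0.00109). The calls for MYL12A thus ran in opposite directions.

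Of 11 tested crosslinkers, 3 rose and 2 fell. ACTN4 and FSCN1, an alpha-actinin and the bundling protein fascin, fell by 0.57 ± 0.14 and 0.54 ± 0.14, and PLS1, an intestinal plastin, rose by 0.62 ± 0.12. In 3-array fits, ACTN4 was at -0.54 without the wt/GFP monolayer (adjusted p = 0.0709) and FSCN1 at -0.49 without the wt monolayer array (adjusted p = 0.086). ACTN1, the other nonmuscle alpha-actinin, rose by 0.52 ± 0.12, yet its 2 other probe sets gave -0.15 and -0.17, and its own value was -0.075 after scaling to the hybridisation controls. In the focal adhesion list 7 of 20 genes rose and 2 fell. LPP, a zyxin relative, rose by 2.07 ± 0.16 (adjusted p = 1.12e-10), TNS3, a tensin, by 1.59 ± 0.21 and ITGA5, the fibronectin receptor subunit, by 1.03 ± 0.23. ITGA5 did not pass in the 3-array fits without the wt monolayer (0.41, adjusted p = 0.334) or the wt/GFP spheroid array (0.72, adjusted p = 0.236), whereas its change within each line was 1.34 in wt and 0.71 in wt/GFP. PARVA, a parvin that joins integrins to actin, fell by 0.93 ± 0.18.

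Proteins that build and cut filaments changed in both directions. Of 21 actin turnover genes, 9 rose and 4 fell. GSN, the severing protein gelsolin, rose by 2.41 ± 0.13 (adjusted p = 4.91e-14), from 975 to 4998 in wt and from 1070 to 6035 in wt/GFP. VIL1, villin of the brush border, rose by 1.42 ± 0.52, from dim signals of 16.1 to 90.7 in wt and 28.8 to 73.6 in wt/GFP. Both VIL1 monolayer signals lay under the filter signal of 30.6, so the probe set passed the filter through its spheroid signals. In a limma fit with no filter VIL1 was not called (adjusted p = 0.108). SSH1, a phosphatase that activates cofilin, rose by 1.25 ± 0.13 on its brightest probe set. The 2 other SSH1 probe sets were not called (0.34 ± 0.18 and -0.063 ± 0.24). VIL1 did not pass under the 3 other scalings, nor in the 3-array fits without the wt monolayer (1.16, adjusted p = 0.130), the wt spheroid (1.29, adjusted p = 0.125) or the wt/GFP spheroid array (1.55, adjusted p = 0.0717). CFL2, a cofilin, fell by 1.30 ± 0.13 on its brightest probe set, with its 2 others also lower. Of 17 nucleators, 7 fell and 3 rose, with a median of -0.16. These counts depended on the scaling. With quantile normalization 5 fell and 5 rose, with a median of 0.13. With median centring, and likewise with the hybridisation controls, 10 fell and 1 rose. ARPC4, a subunit of the branching Arp2/3 complex, fell by 1.62 ± 0.13, and DIAPH3, a formin, fell by 1.47 ± 0.14, while FMNL2, another formin, rose by 1.56 ± 0.13. INF2 fell by 2.80 ± 0.24 on 1 probe set and rose by 0.80 ± 0.24 on the other, which had nearly the same mean level. No direction is therefore given for INF2, although the first probe set counts it among the 7 nucleators and the 17 list genes that fell.

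**Figure D4:**
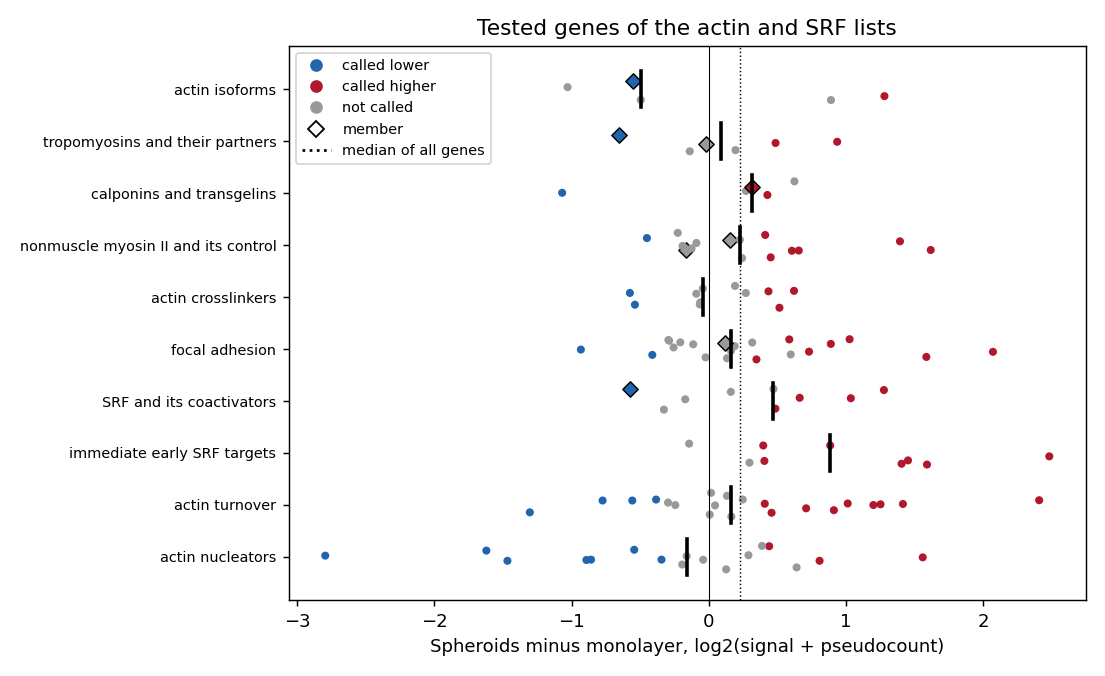
Change of each tested gene between spheroids and monolayer (x axis, log2 units) in the 10 actin and SRF lists, blue for called lower, red for called higher and grey for not called; diamonds are members, black bars list medians and the dotted line the median of all genes at 0.23. Immediate early targets lie mostly to the right, and nucleators reach furthest to the left.

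Genes with a CArG box in the promoter window were called in both directions. Of the 124 list genes that are not members, 108 had a promoter entry and 13 held a match, and 12 of these were tested. Of the 12, 5 rose, 1 fell and 6 did not pass. Among all genes 29.6% were called higher and 17.7% lower, and a difference from these shares was not tested. The 5 were LPP, MYLK, EGR1, TGFB1I1 and ACTN1, and the 1 was CNN2; EGR1 (0.89 ± 0.13) and TGFB1I1 (0.73 ± 0.17) were named after their values were seen. Among the members with a match that could be measured, SRF fell and TPM4 did not pass.

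Markers of other cell types were checked because contractile genes are abundant in muscle and stroma. Of 6 epithelial markers, 5 were above the filter, with signals up to 32967. EPCAM, KRT19 and CDH1, 3 of these 5, rose, against 29.6% of all genes, and KRT8 and KRT18 were not called. With median centring CDH1 alone was higher and KRT8 was lower. With the hybridisation controls CDH1 alone was higher, and KRT8 and KRT18 were lower. CDH1, the adhesion protein E-cadherin, rose by 2.36 ± 0.13, from 916 to 4493 in wt and from 889 to 4866 in wt/GFP (adjusted p = 1.06e-13). Of 6 smooth muscle markers, 4 were above the filter, with summed signals of 285 and 290 in monolayers and 491 and 380 in spheroids. LMOD1 and CNN1 were not above the filter. DES rose under all 4 scalings, and ACTG2, which did not pass, went from 42.5 to 117 in wt and from 95.0 to 9.71 in wt/GFP. Of 7 fibroblast markers, 4 were above it, with sums of 405 and 483 in monolayers and 2429 and 3988 in spheroids, mostly COL1A1, a collagen chain, at 303 and 338 against 2275 and 3780, while COL1A2, LUM and PDGFRB were not. Of the endothelial and immune markers, PECAM1 (103 to 189) and CD3E (29.5 to 68.0) alone were above it. The part of these markers in the results was not tested.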

How the data were processed

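Total RNA of HCT116 cells was profiled on 4 arrays, 1 for each line and culture condition. The authors deposited MAS5 intensity values on a linear scale, per the submitters' processing notes, which name no version. The 2% trimmed mean computed here was 500.1 on every array, so a change in total RNA per cell is not visible. Probe sets were named from the platform annotation, with symbols updated through RefSeq: 41091 had 1 symbol, 1801 several and 11721 none, the 62 controls aside. Signals were taken as log2(signal + 14.0), the 25th percentile. Probe sets above the 40th percentile of mean log2 value (5.48, a signal of 30.6) were fitted in limma 3.58.1 (R 4.3.3), with culture and cell line as terms and a trend. With 1 residual degree of freedom against 25.0 from the prior, each SE rests mainly on other probe sets of like brightness. Fold changes of dim probe sets are understated on this scale. Pairing follows the cell line in the labels; line differences in monolayers and spheroids correlated at -0.0032 across probe sets. Fits that leave out an array had culture as the sole term. Precision is limited by the number of arrays, and errors were larger for dim probe sets. Detection calls were not used. On simulated data of the same size (32774 probe sets, 200 changed) the fit recovered 58% of 2-fold and 79% of 4-fold changes, with 12 false calls. The simulated arrays had no line difference, and far fewer probe sets changed than the 40.1% called here. These figures therefore do not give the recovery or error rate in these data. All members were described. From each list, the rule took up to 4 called genes with the largest change, in the same direction in both lines, and up to 2 uncalled genes, which are given as counts only. The members and lists were chosen with earlier results of these data known.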

Additional observations from a re-analysis of the deposited data

Results flagged for a closer look

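In 3 of the 22 tested member probe sets the culture change had opposite signs in the 2 lines, and this difference was not tested, since each line had 1 array per culture. TPM1 probe set 238688_at changed by 1.42 log2 units in wt and by -0.36 in wt/GFP, a difference of 1.78 between the lines, with signals of 26.0 to 100.4 that lie near the filter of 30.6. TPM4 probe set 1567107_s_at changed by -0.063 and 0.030, a difference of -0.094. SRF probe set 202400_s_at changed by -0.0091 and 0.025, a difference of -0.034. The last 2 differences are far smaller than the errors of these probe sets.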

How the results depend on the processing

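ACTB was called lower in 13 of 16 alternatives, TPM1 in 13 of 17 and SRF in 12 of 16; TAGLN2 was called in 8 of 17. Without a trend in the moderation, limma called 0 of the 8 genes and 0 member probe sets in either direction (2 genes at an unadjusted p under 0.05, both lower; 1 probe set higher and 6 lower), and 2180 probe sets higher and 680 lower in place of 8345 and 4799; of the list genes it called 9 higher and 4 lower in place of 44 and 20. With no replicate block 0 genes and 1 member probe set were higher (1 gene at an unadjusted p under 0.05); 3 genes were lower, and the pairing by line changed no other member gene's call. Median centring gave 4286 probe sets higher and 8828 lower, 0 member probe sets and 0 genes higher (0 at an unadjusted p under 0.05), 5 genes lower, a median over the member genes of -0.48, and 19 list genes higher and 46 lower. Scaling to the hybridisation controls gave 1876 and 7745, 0 member probe sets and 0 genes higher (0 at an unadjusted p under 0.05), a median of -0.68, and 10 list genes higher and 36 lower. Quantile normalization gave 2 genes higher and a median of -0.31. With no pseudocount 1 member probe set and 0 genes were higher (1 gene at an unadjusted p under 0.05), with the median signal as pseudocount the median was -0.23, and with no filter 0 genes were higher (1 at an unadjusted p under 0.05). Leaving out probe sets ending in x_at or s_at left 4 genes, TAGLN2, TPM1, TPM4 and MYL9. ACTB, SRF, MYH9 and VCL could not enter that fit as genes. It gave 5348 probe sets higher and 2401 lower, with 1 member probe set higher and 3 lower, these 3 being the ACTB controls. Of the 4 genes left, 0 were lower (0 at an unadjusted p under 0.05). Their median was 0.42, and 12 list genes were lower. Averaging a gene's probe sets gave 1 gene lower and a median of 0.034. Leaving out each array in turn, which also dropped the line term and left 1 culture with 1 array, gave 0 to 1 member probe sets higher and 4 to 8 lower, 0 to 1 genes higher and 1 to 2 lower, and medians from -0.16 to -0.028. The cause of these shifts was not tested.

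These values turned direction. After quantile normalization MYH9 was -0.025, SRF 202400_s_at -0.34 and INF2 0.43. After median centring TAGLN2 was -0.077 and, on 210978_s_at, -6.1e-05, MYH9 -0.23, VCL -0.27, TPM4 209344_at -0.21 and SRF 202400_s_at -0.38. After scaling to the hybridisation controls TAGLN2 was -0.28 and -0.20, MYH9 -0.43, VCL -0.47, TPM1 238688_at -0.063, TPM4 209344_at -0.41, SRF 202400_s_at -0.58, CALD1 -0.10, CNN3 -0.16, ACTN1 -0.075 and ELK4 -0.10. INF2 was 0.85 with no pseudocount. Without x_at and s_at probe sets, another probe set stood for TPM1 (0.53), TPM4 (0.18) and MYL9 (0.87). Averaging gave MYL9 0.35 and MYL12A -0.12. In the same 3-array fits without the line term, TPM4 1567107_s_at ranged from -0.12 to 0.082, MYL9 201058_s_at from -0.39 to 0.059, TPM1 1558532_at from -0.90 to 0.77, TPM1 238688_at from -0.23 to 1.29 and SRF 202400_s_at from -0.43 to 0.45; the changes within each line were -0.063 and 0.030 for TPM4 and -0.10 and -0.23 for MYL9.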
